A study of Rattus norvegicus with 2 samples.

Results

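Arterial wall macrophages were examined in single-cell RNA of rat carotid arteries, 28 days after balloon injury. The control library was made from left carotid arteries with no treatment and the case library from right carotid arteries with balloon injury. Both libraries came from the same 2 rats, pooled, with no label that ties a cell to an animal. Injury and side cannot be told apart. All rats were male SD (Sprague-Dawley) animals and labelled as 12 weeks old. The control library held 24968329 UMIs and the case library 28232614 over all barcodes. Each group held 1 library with no replicate, so no test between the groups was possible. Every interval given covers the counting error of unique molecular identifiers (UMIs) or cells only, at the 95% level.

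Macrophages are phagocytes that live in the adventitia of a healthy artery and are recruited into the wall after injury and in atherosclerosis. They depend on signals through the receptor Csf1r, clear debris and dead cells in lysosomes, release complement and chemokines, and can export or store cholesterol. Some of them present peptides on major histocompatibility complex (MHC) class II molecules, which in the rat are encoded by the RT1-B and RT1-D genes.

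The macrophages were chosen by their measured RNA. A cell was a member if it held at least 1000 UMIs, at most 20% mitochondrial UMIs and at least 1 UMI of 3 or more of the 8 genes Cd68, Ncf4, Cd86, Ccr1, C1qa, C1qb, Lyz2 and Csf1r. The 6 smooth muscle genes Acta2, Tagln, Myl9, Myh11, Cnn1 and Cald1 had to stay under 1% of its UMIs and the 4 matrix genes Col1a1, Col3a1, Dcn and Lum under 1.5%. Of 8977 barcodes, 7191 passed the limits on depth and mitochondrial UMIs and are called kept cells. Of these, 163 were macrophages.

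The deposited matrix joins both libraries and tells them apart by a barcode suffix alone. The suffix with 5656 barcodes was taken as the case library and that with 3321 as the control library, because these numbers match the cell numbers stated for the libraries before filtering. Of the barcode sequences, 21 occurred in both libraries, and 1 macrophage carried such a sequence.

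Macrophages made up 46 of 2244 kept control cells, or 2.05% (1.505 to 2.72, Clopper-Pearson). They made up 117 of 4947 kept case cells, or 2.37% (1.96 to 2.83). The intervals overlapped over most of their range. They cover the counting error of cells only. With no replicate library in either group, a difference in share between the groups could not be tested at any number of cells. Macrophages held 413021 UMIs in the control library, with a median of 9107.5 per cell, and 672666 in the case library, with a median of 5097. The lower depth of the case library was not particular to them, since kept cells as a whole had medians of 10906.5 and 5174 UMIs.

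With exactly 3 of the 8 genes, there were 3 control and 17 case members. Just outside, 3 control and 6 case cells under both limits carried 2 of the genes. A further 3 control and 8 case cells carried 3 or more of the genes but exceeded the limit on smooth muscle or matrix genes. The median member held 0.0846% smooth muscle UMIs in the control library and 0.0524% in the case library.

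A list of 23 identity genes outside the selection was looked up, of which 21 were listed and 17 reached a mean of 100 CPM (counts per 1e+06 UMIs of the same cells) in the macrophages. Their summed level was 10472 CPM in the control and 11906 CPM in the case macrophages, against 279 and 246 CPM in cells chosen for smooth muscle genes. Tyrobp, a signalling adaptor of myeloid cells, was detected in 44 of 46 control and 110 of 117 case members. Fcer1g, the common chain of Fc receptors, was detected in 46 and 111 of them. The summed level sets the members apart from smooth muscle cells. Neither it nor Tyrobp and Fcer1g can tell macrophages from other myeloid cells. Sub-cluster 4, described below, held Tyrobp at 747 CPM with Csf1r at 11.4 CPM and Adgre1 at 0. Cx3cr1, a chemokine receptor of many tissue macrophages, was close to absent, with 0 UMIs in control and 3 in case members.

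Compared with the other kept cells of the same library, 130 of 1253 genes at 100 CPM or more in both libraries were at least 10-fold higher in the macrophages, and 67 were at least 100-fold higher. Of these 67, 6 belonged to the selection. The comparison is a description, because the same RNA chose the cells. Il1rn, the natural antagonist of the interleukin-1 receptor, had the largest ratio when the lower of the ratios in the libraries was taken, at 288 CPM in control and 410 CPM in case macrophages against 0.30 CPM in the other cells of either library. By the same measure it was followed by Pf4, a platelet-type chemokine also made by resident macrophages, at 3375 and 1714 CPM against 3.21 and 1.82 CPM.

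Several groups of myeloid genes stood among the 15 leading genes. The complement genes C1qa, C1qb and C1qc, whose products recognise immune complexes and dying cells, lay between 1133 and 1952 CPM in the macrophages and at or under 4.17 CPM elsewhere. Lyz2, lysozyme, was at 4046 CPM in control and 3537 CPM in case macrophages. Bcl2a1, an inhibitor of apoptosis induced by NF-kB, was at 4111 and 2567 CPM. Nlrp3, the sensor of the inflammasome, Cybb, the catalytic subunit of the phagocyte oxidase, Spi1, the transcription factor PU.1, Pld4, Folr2, Fcgr2a, Fcer1g and Fcmr completed the group.

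**Figure D1:**
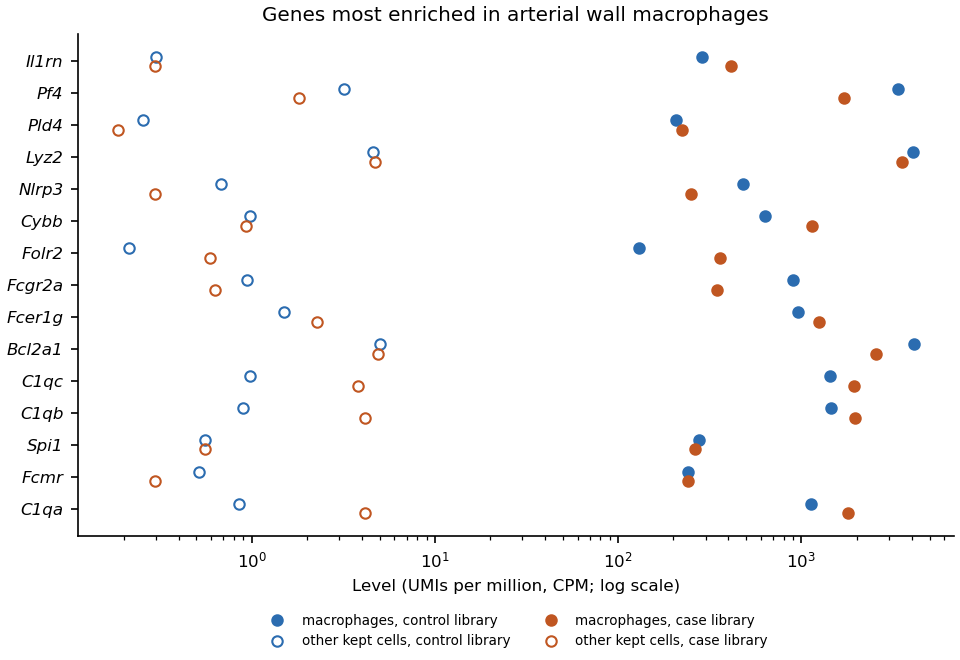
Level of the 15 genes with the largest ratio between macrophages and the other kept cells of the same library (ranked by the lower of the ratios in the libraries), in CPM on a log scale. Filled points are macrophages and open points the other cells (1 library per group, no error bar); each gene lies at least 429-fold higher in the macrophages of both libraries.

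Markers of other cell types were low but not at 0. The 6 smooth muscle genes summed to 884 CPM in control and 1509 CPM in case macrophages, led by Tagln at 375 and 639 CPM, against 26189 and 21381 CPM in the smooth muscle cells. The 5 fibroblast genes summed to 780 and 601 CPM, led by Col3a1. Both groups include genes that the selection capped.

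Endothelial genes summed to 77.5 CPM in control and 17.8 CPM in case macrophages, led by Kdr with 25 UMIs in 2 control cells of the sub-cluster 4 described below, and Cldn5, Sox17 and Emcn were at 0. The T and NK cell genes summed to 12.1 and 37.2 CPM, led by Cd2, with Cd3d, Cd3e and Cd3g at 0. B and plasma cell, mast cell and adipocyte genes summed to at most 14.5 CPM, with Ms4a1, Tpsb2 and Adipoq at 0. Schwann cell genes summed to 29.1 and 37.2 CPM, led by Mbp, with Sox10 at 0, and erythroid genes to 26.6 and 28.2 CPM. At least 3 of the smooth muscle genes were detected in 39 control and 41 case members, and at least 3 of the fibroblast genes in 6 and 13. No member held 3 or more genes of the endothelial, T and NK cell, B and plasma cell, mast cell or Schwann cell lists.

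Across the macrophages, 1441 genes had a mean of at least 100 CPM over both libraries, and their median log2 ratio of case over control was -0.02. Over 2-fold higher in the case library were 62 genes, a background of 4.3%. Over 2-fold lower were 50 genes, a background of 3.47%. Both shares are to be read beside every count of list genes past 2-fold below. With members thinned to 1000 UMIs before summing, 128 genes were over 2-fold higher and 122 lower. In the smooth muscle cells, at larger summed depth, 20 of 1341 genes were over 2-fold higher and 32 lower. In the endothelial cells, whose summed depth of 420363 and 993376 UMIs was closest to that of the macrophages, 124 of 1441 genes were over 2-fold higher and 140 lower. The 12 mitochondrial genes had a median of 0.46 and the 68 ribosomal protein genes of -0.34 in macrophages, which is a difference between the libraries to be read beside every ratio below. A bulk sum cannot tell apart fewer cells with a gene and less of its RNA per cell, so the numbers of cells are given with the main genes.

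**Figure D2:**
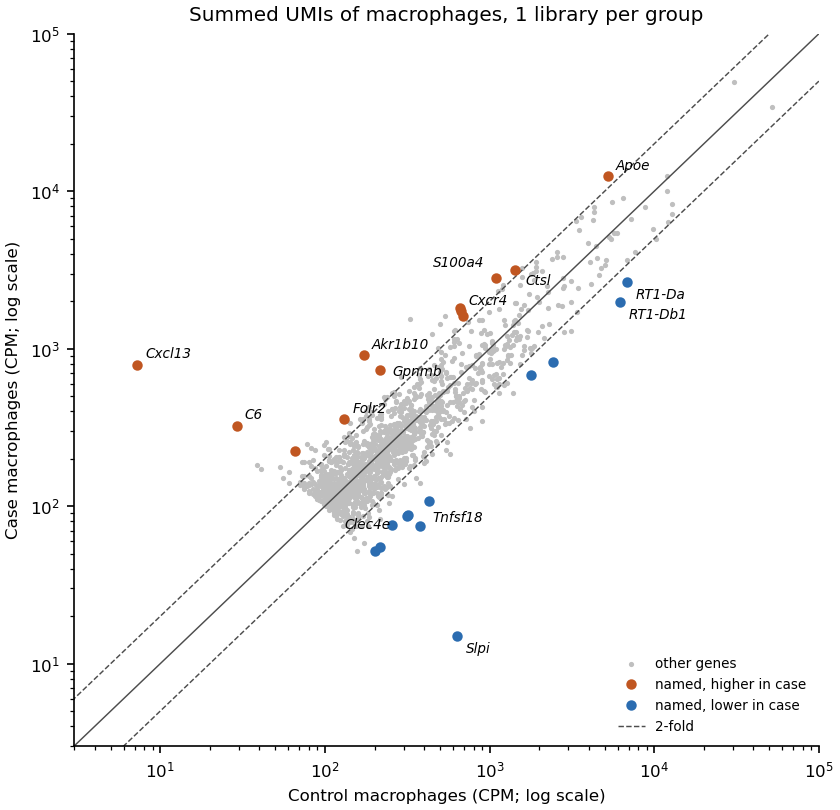
Level of 1441 genes in control (horizontal) and case (vertical) macrophages, in CPM on log scales, as sums over 46 and 117 cells of 1 library each. Orange and blue points are the 12 genes furthest above and the 12 furthest below equality by their counting interval, of which some are labelled. Only genes at or above the level of the other kept cells, in the library where the macrophages held more of the gene, were ranked for this. Cxcl13 and Slpi lie farthest from the diagonal.

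The gene with the largest ratio was Cxcl13 (ENSRNOG00000024899), the chemokine that draws B cells through Cxcr5. It had 3 UMIs in 2 of 46 control macrophages and 532 UMIs in 36 of 117 case macrophages. The levels were 7.26 CPM (1.498 to 21.2) and 791 CPM (725 to 861), a log2 ratio of 6.77 (5.21 to 9.05). The highest case cell held 27.8% of the case UMIs. Without the highest cell of each library the log2 ratio was 7.88. The highest control cell held 2 of the 3 control UMIs, so the size of that value says little. With members thinned to 1000 UMIs the log2 ratio was 3.76, on few control UMIs. The other kept cells held 0.47 CPM in the control and 9.34 CPM in the case library, so Cxcl13 was higher in the case library outside the macrophages too, at a level far below theirs.

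C6 (ENSRNOG00000024115), a component of the membrane attack complex of complement, was at 29.1 CPM (15.0 to 50.8) in 7 control cells and 324 CPM (282 to 370) in 31 case cells, a log2 ratio of 3.48 (2.65 to 4.45), or 2.20 with members thinned to 1000 UMIs and 2.42 with every cell weighted the same. Akr1b10, an aldo-keto reductase that detoxifies aldehydes, was at 172 CPM in 10 control cells and 908 CPM in 55 case cells, a log2 ratio of 2.40 (2.05 to 2.78), beside 5.30 and 20.7 CPM in the other kept cells. In endothelial cells the ratio of Akr1b10 was larger, at 3.86 (2.71 to 5.32), from 14.3 to 207 CPM. Cxcr4, the receptor for the chemokine Cxcl12, was at 666 CPM in control and 1727 CPM in case macrophages, with a log2 ratio of 1.38 (1.18 to 1.57), or 0.88 with members thinned to 1000 UMIs. In endothelial cells it was at 7.14 and 143 CPM, with a log2 ratio of 4.32 (2.75 to 6.62). C6, Akr1b10 and Cxcr4 were detected in a larger share of case than of control cells, although the case cells were shallower. At an equal depth of 1000 UMIs the shares were 2.17% (0.055 to 11.5) of control and 16.2% (10.1 to 24.2) of case cells for C6. They were 10.9% (3.62 to 23.6) and 26.5% (18.8 to 35.5) for Akr1b10, and 34.8% (21.4 to 50.2) and 51.3% (41.9 to 60.6) for Cxcr4. The intervals overlapped for each gene.

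Cfd, complement factor D of the alternative pathway, was at 692 CPM in 35 control cells and 1623 CPM in 78 case cells, a log2 ratio of 1.23 (1.04 to 1.42). Folr2, a folate receptor of resident macrophages, was at 131 and 358 CPM with a log2 ratio of 1.45 (1.02 to 1.91), and it was detected in 52.2% of control and 47.0% of case cells. With members thinned to 1000 UMIs the log2 ratio of Folr2 was 0.53, under 2-fold, while it was found in 4.35% (0.531 to 14.8) of control and 19.7% (12.9 to 28.02) of case cells, and Cfd in 28.3% (16.0 to 43.5) and 45.3% (36.1 to 54.8). The intervals of both genes overlapped between the libraries. Tmem256 was at 65.4 and 223 CPM, a log2 ratio of 1.77 that was 0.74 with thinned members.

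S100a4, a calcium-binding protein of motile cells, was at 1090 and 2816 CPM, a log2 ratio of 1.37 (1.22 to 1.52), but it differed between the libraries in smooth muscle cells too, by 1.09. Without sub-cluster 4 its log2 ratio in macrophages was 2.60. S100a6 was at 327 and 1533 CPM in the macrophages, a log2 ratio of 2.23 (1.97 to 2.50), and lay below the level of the other cells of its library. LOC100362149 was at 659 and 1814 CPM in macrophages with a log2 ratio of 1.46, and at 1.56 in smooth muscle cells. Each of these 3 genes was higher in the case library in smooth muscle cells too, S100a6 by 0.92. Of the 7 S100 genes looked up, 4 reached 100 CPM, 2 being over 2-fold higher and 1 lower, beside 4.3% and 3.47% of all genes. The median of the 4 genes was 0.27. The lower one was S100a11, at 402 and 189 CPM with a log2 ratio of -1.09 (-1.43 to -0.75), and S100a10 was at -0.84 (-0.99 to -0.68). The median of the list was 1.27 without sub-cluster 4 and turned to -0.84 with every gene of at least 10 UMIs.

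Lipid handling genes were the list with the most genes over 2-fold higher. Of its 18 genes, 17 were listed and 9 reached 100 CPM. Of these, 4 were over 2-fold higher and 0 over 2-fold lower in the case macrophages, beside 4.3% and 3.47% of all genes. The list's median log2 ratio was 0.63 beside -0.02 over all genes, and 0.39 without sub-cluster 4, described below. Apoe, the apolipoprotein that takes up exported cholesterol, was the most abundant of the list. It was at 5222 CPM (5004 to 5448) in 34 control cells and 12504 CPM (12238 to 12774) in 81 case cells. Its log2 ratio was 1.26 (1.19 to 1.33), against -0.11 in smooth muscle cells and 0.31 in fibroblasts. In endothelial cells the ratio was larger than in macrophages, at 1.96 (1.70 to 2.22), from 326 to 1267 CPM.

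Gpnmb, a glycoprotein of lipid-loaded macrophages, was at 215 and 736 CPM with a log2 ratio of 1.77 (1.44 to 2.11), and was detected in 24 control and 74 case cells. Lgals3, a galactose-binding lectin, was at 615 and 1311 CPM with a log2 ratio of 1.09 (0.89 to 1.30). The ratio of Lgals3 was -0.91 in smooth muscle cells, 0.86 in fibroblasts and 3.43 in endothelial cells. Abcg1, a cholesterol exporter, was at 79.9 and 192 CPM with a log2 ratio of 1.26 (0.70 to 1.86). The scavenger receptor Olr1 lay under the mean of 100 CPM, at 43.6 and 131 CPM, with a log2 ratio of 1.59 (0.84 to 2.41).

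Other members of the lipid list did not follow. Fabp5, a fatty acid carrier, was at 1627 CPM in control and 1035 CPM in case macrophages, a log2 ratio of -0.65 (-0.81 to -0.50). Plin2, the coat protein of lipid droplets, was at 1215 and 998 CPM, and the scavenger receptor Msr1 at 269 and 198 CPM. Trem2, a lipid receptor of plaque macrophages, had 33 control and 38 case UMIs, a log2 ratio of -0.50 (-1.21 to 0.22) whose interval spans 0. The nuclear receptors Pparg and Nr1h3 had at most 5 UMIs in either library.

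Lysosomal genes had a median log2 ratio of 0.41 over 13 genes at 100 CPM or more. Of these, 1 was over 2-fold higher and 0 over 2-fold lower, beside 4.3% and 3.47% of all genes. The higher gene was Ctsl, a lysosomal cysteine protease, at 1431 and 3144 CPM. Its log2 ratio was 1.14 (1.00 to 1.27), or 0.83 with members thinned to 1000 UMIs. In smooth muscle cells the ratio was -0.17, in fibroblasts -0.30 and in endothelial cells 0.49 (0.34 to 0.65). Ctsb, the most abundant, was at 3470 and 5688 CPM with a log2 ratio of 0.71 (0.63 to 0.80). Lgmn and Grn had log2 ratios of 0.91 and 0.83. Of the 13 genes, Cd63 alone was lower in the case macrophages, at -0.20 (-0.31 to -0.09).

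**Figure D3:**
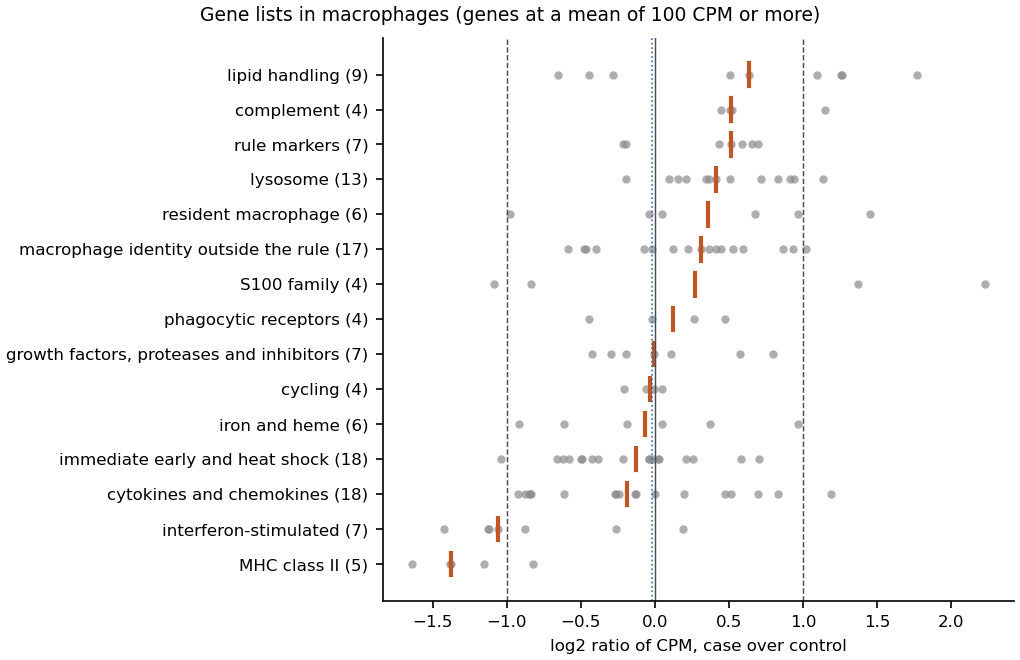
Log2 ratio of CPM, case over control, of each gene at a mean of 100 CPM or more (grey points) in 15 gene lists, with the list's median (orange bar) and its number of genes in parentheses. Dashed lines mark 2-fold and the dotted blue line the median of all 1441 genes; the lists run from MHC class II at -1.38 to lipid handling at 0.63.

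MHC class II genes were the list with the lowest median. Of 11 genes, all listed, 5 reached 100 CPM and 4 of these were over 2-fold lower in the case macrophages, beside 3.47% of all genes. The list's median log2 ratio was -1.38, with 0 genes over 2-fold higher. With sub-cluster 4, described below, left out, the median was -0.83 and 2 of the 5 genes were over 2-fold lower, RT1-Da being at -0.78. With every cell weighted the same, it was -0.89 with 1 of the 5. The 4 genes encode chains of the RT1-D and RT1-B heterodimers. In the promoters given by RefSeq (build GRCr8) for these 4 genes, the letters CTGATTGG were found in each. The letters AGCAAC, any base and GATG, searched on both strands like the former, were found in those of RT1-Da and RT1-Db1. These are the Y box and the core of the X box, known to be bound by the factors NF-Y and RFX, through which the coactivator Ciita acts. Below, capitals mark these motifs in windows on chromosome 20, printed 5′ to 3′ along the gene, at chr20:4515320-4515382 (plus strand) for RT1-Da, chr20:4560226-4560287 (minus strand) for RT1-Db1, chr20:4576999-4577030 (plus strand) for RT1-Ba and chr20:4604163-4604194 (minus strand) for RT1-Bb.
RT1-Da: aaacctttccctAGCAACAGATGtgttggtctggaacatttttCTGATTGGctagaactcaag
RT1-Db1: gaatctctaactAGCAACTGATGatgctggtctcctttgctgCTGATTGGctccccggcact
RT1-Ba: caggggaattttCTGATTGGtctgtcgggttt
RT1-Bb: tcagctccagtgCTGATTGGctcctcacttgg

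Of all 33469 rat promoters of the same length in that table, 250 bases before to 50 after the start, 3.5% held the Y box letters, 0.0478% the X box letters and 4 promoters both. Of the 11 MHC class II genes, 9 had a promoter in the table, 6 with the Y box and 4 with the X box letters. A match describes the sequence and does not show binding.

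RT1-Da, the alpha chain of RT1-D, was at 6876 CPM (6626 to 7134) in 24 of 46 control macrophages and 2642 CPM (2520 to 2767) in 59 of 117 case macrophages. RT1-Db1, its beta chain, was at 6193 and 1983 CPM. RT1-Ba and RT1-Bb, the chains of RT1-B, were at 2821 and 1270 CPM and at 1799 and 688 CPM. With members thinned to 1000 UMIs the log2 ratio of RT1-Db1 was -1.02. In the sums the log2 ratios of the 4 genes were -1.38 (-1.47 to -1.29), -1.64 (-1.74 to -1.55), -1.15 (-1.28 to -1.02) and -1.39 (-1.56 to -1.22). Cd74, the invariant chain that guides class II molecules to the endosome, was at 12752 and 7209 CPM with a log2 ratio of -0.82 (-0.88 to -0.77). Ciita itself had 6 control and 3 case UMIs, too few to compare. In the other kept cells none of these genes exceeded 31.2 CPM.

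RT1-Da was detected in 52.2% of control and 50.4% of case macrophages, although the case cells were shallower. Class II UMIs were unevenly spread over the macrophages. In the control library their share of a cell's UMIs ran from 0% through a median of 0.130% to 11.8%, and in the case library from 0% through a median of 0.151% to 11.6%. At least 1% of UMIs was reached by 21 control cells, or 45.7% (30.9 to 61.0), and by 44 case cells, or 37.6% (28.8 to 47.0). The limit of 1% was chosen after the distribution had been seen. The medians of the libraries lay side by side, while the upper quartile was 5.22% in the control and 2.52% in the case library.

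At least 1% of UMIs from Apoe was found in 10 control and 34 case macrophages, and of these 5 control and 5 case cells also had at least 1% from class II. Cells with both made up 10.9% (3.62 to 23.6) of control and 4.27% (1.40 to 9.69) of case macrophages. The Apoe share reached 3.11% in the richest control cell and 9.12% in the richest case cell. With every cell weighted the same in place of summing UMIs, the log2 ratio was 0.98 for Apoe and -0.90 for RT1-Da, so both lay just under 2-fold.

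**Figure D4:**
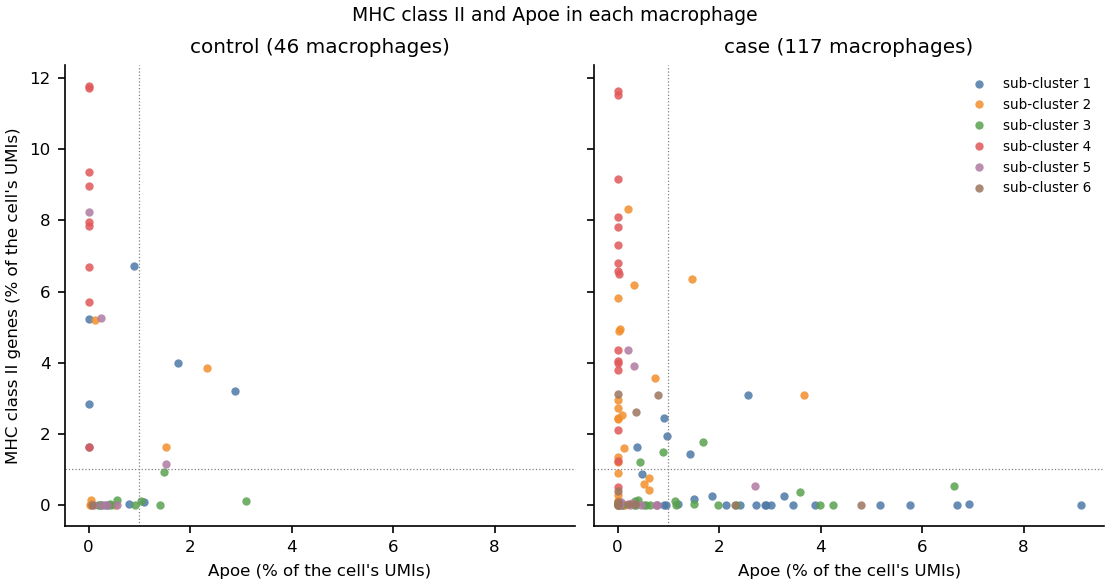
Share of a cell's UMIs from the 11 MHC class II genes (vertical) and from Apoe (horizontal), in percent, for each of 46 control and 117 case macrophages, coloured by sub-cluster. Dotted lines mark 1%; 5 of 46 control and 5 of 117 case cells lie above both.

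Interferon-stimulated genes were the other list with a median beyond 2-fold. Of 14 genes, 7 reached 100 CPM and 4 were over 2-fold lower in the case macrophages, beside 3.47% of all genes. The list's median log2 ratio was -1.06. Isg15, a ubiquitin-like modifier, was at 579 and 216 CPM with a log2 ratio of -1.42 (-1.73 to -1.12). Rsad2 (viperin), at 1148 and 526 CPM, had a log2 ratio of -1.12 (-1.33 to -0.92), and a single cell held 39.9% of its control UMIs and another 31.1% of its case UMIs. Ifit3 was at 893 and 428 CPM and Ifi47, an interferon-inducible GTPase, at 184 and 84.7 CPM. Oasl, the most abundant, went the other way, at 1235 and 1406 CPM. Without sub-cluster 5, described below, the median of the group was -0.65 with 2 genes over 2-fold lower. With members thinned to 1000 UMIs it was -0.79 and 0 genes passed 2-fold.

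Interferon acts on such genes through the interferon-stimulated response element, here searched on both strands as GAAA, any 2 bases and GAAA. Promoters of 6 of the 9 listed genes with an entry in the RefSeq table held it, against 3.92% of all promoters. The windows of Rsad2 and Ifit3 are shown because both genes were over 2-fold lower and held a match, at chr6:48788248-48788277 (minus strand) for Rsad2 and chr1:241527272-241527301 (plus strand) for Ifit3 (GRCr8), with the match in capitals, which in both reads on the opposite strand.
Rsad2: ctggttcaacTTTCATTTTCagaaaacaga
Ifit3: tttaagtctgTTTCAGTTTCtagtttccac

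Among single genes, Slpi (ENSRNOG00000046699), a secreted inhibitor of leukocyte proteases, had the lowest ratio. It had 263 UMIs in 4 control cells, of which the richest held 58.9%, and 10 UMIs in 5 case cells, or 637 CPM (562 to 719) and 14.9 CPM (7.13 to 27.3). The log2 ratio of -5.42 (-6.50 to -4.52) therefore rested on 4 control cells, all of sub-cluster 4 described below, and was -2.39 with cells of 2 selection genes added. Outside that sub-cluster 0 control and 3 case UMIs were left, too few for a ratio.

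Tnfsf18, the ligand of the costimulatory receptor GITR, was at 375 CPM in 19 control cells and 74.3 CPM in 25 case cells, a log2 ratio of -2.34 (-2.83 to -1.87), or -1.14 without sub-cluster 5, described below. Basp1 was at 426 and 107 CPM, a log2 ratio of -1.99 (-2.41 to -1.59). Clec4e, the receptor Mincle for mycobacterial glycolipids and dead cells, was at 315 CPM in 58.7% of control cells and 86.2 CPM in 19.7% of case cells, a log2 ratio of -1.87 (-2.34 to -1.41). At an equal depth of 1000 UMIs, Clec4e was found in 17.4% (7.82 to 31.4) of control and 7.69% (3.58 to 14.1) of case cells and Tnfsf18 in 21.7% (10.9 to 36.4) and 6.84% (2.998 to 13.03), with overlapping intervals for both.

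Pkib, an inhibitor of protein kinase A, was at 215 and 55.0 CPM, nearly all of it in sub-cluster 4, without which its log2 ratio turned from -1.97 to 2.38 on few UMIs, Samd9 at 320 and 87.7 CPM with a log2 ratio of -1.87 (-0.81 with thinned members), and AABR07059663.1 at 201 and 52.0 CPM. Txn1, thioredoxin, was at 1789 and 682 CPM with a log2 ratio of -1.39 (-1.56 to -1.22), and at -0.91 in smooth muscle cells. Rps2 and the histone gene H3f3b had log2 ratios of -1.57 and -1.75 in macrophages and of -1.54 and -1.31 in smooth muscle cells, and both have near-identical copies whose reads could be split.

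Chemokines and cytokines were abundant in the macrophages of either library. The 26 genes of the list summed to 42267 CPM in control and 33300 CPM in case macrophages. Of 18 genes at 100 CPM or more, 1 was over 2-fold higher and 0 over 2-fold lower, beside 4.3% and 3.47% of all genes. The list's median was -0.19. Without the top 5% of doublet scores the median turned to 0.15. Cxcl1 and Cxcl2, which draw neutrophils, were at 12735 and 8306 CPM and at 11886 and 10044 CPM. Ccl2, which draws monocytes, was at 5484 and 4988 CPM, a log2 ratio of -0.14 (-0.21 to -0.06), beside 1.22 in smooth muscle cells, where it was at 21.8 and 50.8 CPM, and -0.67 in fibroblasts, where it was at 2584 and 1629 CPM. In endothelial cells the ratio of Ccl2 was 3.08 (2.64 to 3.56), from 102 to 866 CPM.

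Ccl3 and Ccl4, chemokines that draw monocytes and T cells, had log2 ratios of -0.85 (-1.05 to -0.65) and -0.88 (-1.02 to -0.74). The prostaglandin synthase Ptgs2 was the gene over 2-fold higher, at 291 and 663 CPM and 1.19 (0.90 to 1.49), although it was detected in 22 control and 36 case cells, a smaller share of the latter, and the other kept cells held more of it, at 1826 and 1302 CPM. Il1b was at 215 and 299 CPM, Il1rn at 288 and 410 CPM and Il6 at 116 CPM in 6 cells and 207 CPM in 11 cells. Tnf and Ccl20 had 0 UMIs in both libraries, which allows up to 7.26 CPM in control and 4.46 CPM in case macrophages by a floor of 3 UMIs, and 8.93 and 5.48 CPM by the exact Poisson interval.

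Genes of resident macrophages moved unevenly. Of 6 genes at 100 CPM or more, Folr2 alone was over 2-fold higher and the median was 0.36. Mrc1, the mannose receptor, was at 748 and 772 CPM and Lyve1, a hyaluronan receptor of perivascular macrophages, at 245 and 238 CPM. Their log2 ratios of 0.04 (-0.16 to 0.25) and -0.04 (-0.41 to 0.33) have intervals that span 0. Cd163, the receptor for haemoglobin-haptoglobin, was at 107 and 208 CPM, and F13a1 at 385 and 614 CPM. Pf4, at -0.98 (-1.09 to -0.86), went the other way. With members thinned to 1000 UMIs the median of the group turned to -0.22.

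Of the remaining complement genes, Itgb2, the beta chain of complement receptor 3, was at 104 and 230 CPM with a log2 ratio of 1.15 (0.65 to 1.67), the only one of 4 genes of the list at 100 CPM or more past 2-fold. C1qc was at 1424 and 1939 CPM. C3, under the mean of 100 CPM, had 6 control and 54 case UMIs, and the inhibitory Fc receptor Fcgr2b had 4 and 53, in 3 and 28 cells. Fcgr2a, of the same receptor family, was at 898 and 346 CPM with a log2 ratio of -1.37 (-1.62 to -1.13), and reads of such related genes could be split in counting. Among phagocytic receptors, 0 of 4 genes at 100 CPM or more passed 2-fold either way, and Cd14, the most abundant, was at 2005 and 1974 CPM.

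Iron and heme genes were the most abundant list of all, at 77163 and 53837 CPM in sum. Fth1, the ferritin heavy chain, was at 52276 and 34093 CPM, a log2 ratio of -0.62 (-0.64 to -0.59) beside -0.62 in smooth muscle cells. Ftl1, the light chain, was at 12145 and 6410 CPM, with -0.92 in macrophages and -0.51 in smooth muscle cells. Hmox1, which degrades heme, was at 11994 and 12412 CPM. None of the 6 genes at 100 CPM or more passed 2-fold.

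Growth factors and proteases that act on smooth muscle were mostly scarce. Of 26 genes, 7 reached 100 CPM and 0 passed 2-fold, with a median of -0.01. Nrp2, a co-receptor of VEGF and semaphorins, was the most abundant at 850 and 916 CPM. Tgfb1 was at 448 and 333 CPM, Hbegf at 160 and 238 CPM and Vegfa at 167 and 146 CPM. Pdgfb had 2 UMIs in control and 0 in case macrophages.

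Low genes of this list included Mmp12, macrophage elastase, with 0 UMIs in control and 40 UMIs in 11 case cells, of which the richest held 32.5%. The exact interval of its log2 ratio began at 2.67. Spp1, osteopontin, had 9 and 85 UMIs, of which 1 case cell held 48.2%, and its log2 ratio of 2.54 was 1.92 without the richest cell of each library. Fn1, fibronectin, had 9 and 42 UMIs, of which 1 case cell held 47.6%. The other kept cells held more of both, Spp1 at 216 and 186 CPM and Fn1 at 640 and 715 CPM. Mmp9 had 0 control and 3 case UMIs, both at or under the floor of 3 UMIs.

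Genes named for macrophages or for restenosis by the study were looked up in the same way. Cdkn1a, a cell cycle inhibitor, was at 487 and 485 CPM, Cd44 at 683 and 945 CPM and Abca1, a cholesterol exporter, at 506 and 785 CPM with a log2 ratio of 0.63 (0.40 to 0.87). App was at 276 and 224 CPM and Copa at 72.6 and 74.3 CPM. P2ry12 and Apoa1 had at most 4 UMIs in either library.

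Immediate early and heat shock genes, which are known to respond to tissue digestion, had a median of -0.13 over 18 genes. Without the top 5% of doublet scores this median was 0.12. Hspa1b alone was over 2-fold lower, at 1218 and 592 CPM. In sum they were at 10273 and 8721 CPM in macrophages and at 25040 and 23239 CPM in smooth muscle cells. Without the cell of each library with the most Hspa1b, its log2 ratio turned from -1.04 to 1.06, so that 1 control cell decided it, and the other kept cells held more, at 4612 and 5475 CPM. Of 10 cycling genes, 4 reached 100 CPM and 0 passed 2-fold, with a median of -0.03. Pcna, which also serves DNA repair, was at 453 and 434 CPM in 42 control and 96 case cells, while Mki67 was detected in 1 control and 3 case cells.

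The 8 listed monocyte and neutrophil genes summed to 102 and 172 CPM, none at 100 CPM or more, with S100a8 and S100a9 at 0 in both libraries. Plac8, the most abundant of them in the control library, was at 84.7 CPM in 5 control cells and 78.8 CPM in 8 case cells. Vcan, the proteoglycan versican, had 6 UMIs in 5 control and 57 UMIs in 20 case cells, a log2 ratio of 2.54 (1.33 to 4.05), at 14.5 and 84.7 CPM against 403 and 448 CPM in the other kept cells. Of 12 dendritic cell genes 1 reached a mean of 100 CPM, Clec10a at 128 and 141 CPM, and Flt3 and Zbtb46 were at 0 in all members. Below that mean, Itgax was at 89.6 and 110 CPM in 22 control and 39 case cells. Irf8 was at 77.5 and 56.5 CPM and Irf4 at 33.9 and 25.3 CPM, and Ccr7 had 6 UMIs in each library. Clec9a and Ccl22 had 4 and 6 control UMIs and 0 case UMIs. Xcr1, Batf3 and Fscn1 had at most 2 UMIs in either library.

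The macrophages were split into 6 sub-clusters by their own genes, which are described by leading genes and not tested. Sub-clusters 1 and 3 shared high Apoe, C1q and Mrc1. Sub-cluster 1 (12 control and 26 case cells) had C6, Il6 and Cd5l among its leading genes and had the highest Apoe, at 20651 CPM, and Cfd at 3116 CPM. Sub-cluster 3 (10 and 21 cells) held Cxcl1 and Cxcl2 at 27908 and 28900 CPM, near the 25703 and 23014 CPM of sub-cluster 5, and was led by Procr, Nuak1, Epha2 and Trib1.

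Sub-cluster 2 (7 control and 31 case cells) was led by Gltpd2, Clec7a, the receptor for beta-glucans, Mmp12 and Pla2g7, and had the highest Gpnmb, Lgals3 and Lyz2, at 1276, 1995 and 6598 CPM. It held 15.2% (6.34 to 28.9) of control and 26.5% (18.8 to 35.5) of case macrophages. Sub-cluster 5 (7 and 12 cells) was led by Rsad2, at 5971 CPM against 32.6 CPM in the other macrophages, Cxcl11 and Ifit1. It held 15.2% (6.34 to 28.9) and 10.3% (5.41 to 17.2).

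Sub-cluster 4 went against the label of macrophage. It held 9 control and 16 case cells, or 19.6% (9.36 to 33.9) and 13.7% (8.02 to 21.3), and entered the selection with a median of 3 of the 8 genes, mainly Lyz2, Ncf4, Cd86 and Cd68. Csf1r was at 11.4 CPM, C1qb at 5.70 CPM, Apoe at 5.70 CPM and Adgre1 at 0, against 1003, 2950, 20651 and 658 CPM in sub-cluster 1. It was led by Slpi, Cd207 (langerin), Adam8, Slamf7, Pkib and Il12b, a subunit of interleukin-12. Cd74 was at 27785 CPM, RT1-Da at 16789 CPM and Plac8 at 416 CPM, while Ccr7 was at 62.7 CPM (11 UMIs) and Flt3 and Zbtb46 at 0. Itgax was at 103 CPM, against 194 CPM in sub-cluster 2, and Irf8 at 34.2 CPM. Clec9a had 4 UMIs and Xcr1 had 1. These cells are left without a cell type name.

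Sub-cluster 4 held 65.1% of all class II UMIs of the control macrophages and 46.6% of those of the case macrophages. Within it, class II genes were at 81013 CPM in control and 58420 CPM in case cells. In sub-cluster 1 they were at 20372 and 2892 CPM, in sub-cluster 2 at 16874 and 19325 CPM and in sub-cluster 5 at 20763 and 5615 CPM. In sub-cluster 3 they were at 849 and 2017 CPM and in sub-cluster 6, with its 1 control cell, at 100 and 7126 CPM. These sums rest on few cells. The median share of a cell's UMIs was 0.855% in control and 0% in case cells of sub-cluster 1, 0.129% and 1.21% in sub-cluster 2, 0.0153% and 0% in sub-cluster 3, 7.96% and 6.54% in sub-cluster 4 and 0% in both libraries in sub-cluster 5.

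Sub-cluster 6 held 1 control and 11 case cells, with a median of 10300 UMIs, the highest of the 6. It was led by the matrix and fibroblast genes Cthrc1, F3, Fbln1 and Timp3, with Dcn at 1154 CPM, Col3a1 at 1316 CPM and Tagln at 2382 CPM, beside C1qb at 1316 CPM. The part of doublets or of RNA from other cells in these values was not tested. Without them 56 genes in place of 62 were over 2-fold higher and 50 over 2-fold lower, and the median of the smooth muscle list turned from 0.80 to -0.50.

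**Figure D5:**
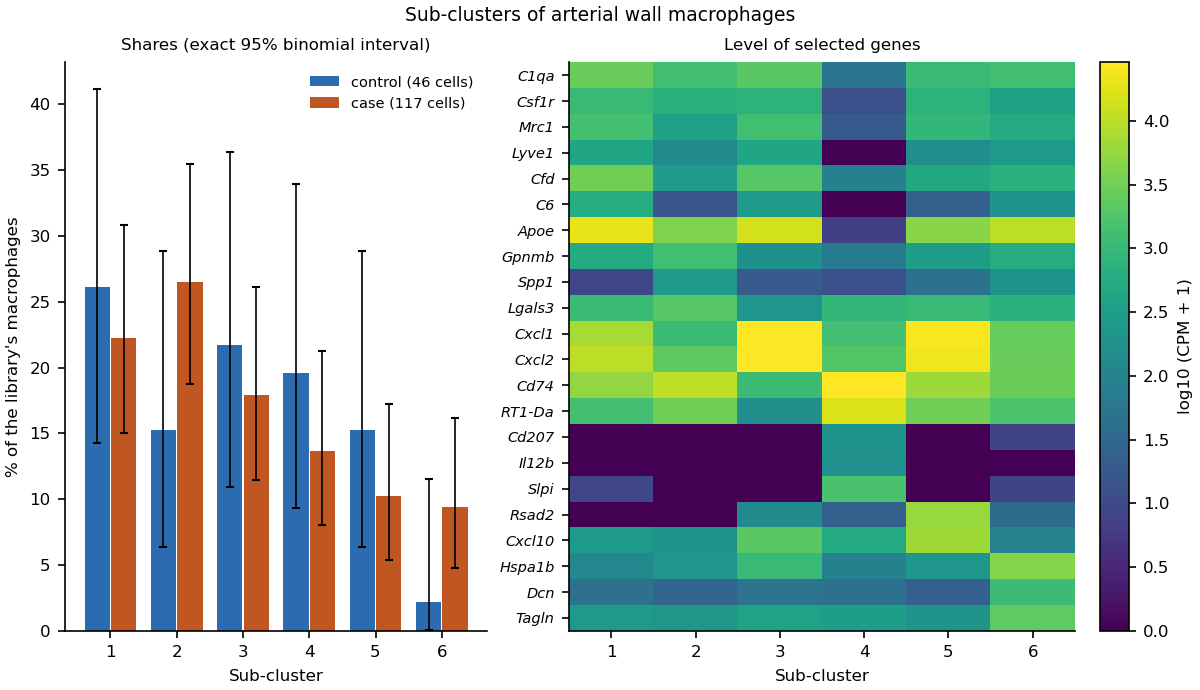
Left, share of each library's macrophages in the 6 sub-clusters, in percent, with exact binomial 95% intervals (46 control and 117 case cells). Right, level of selected genes in each sub-cluster as log10 of CPM plus 1; sub-cluster 4 combines high Cd74 and RT1-Da with low C1qa, Csf1r and Apoe.

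Within sub-clusters, Apoe was at 7362 CPM in control and 28619 CPM in case cells of sub-cluster 1 and at 10823 and 16551 CPM in sub-cluster 3, but at 6746 and 2933 CPM in sub-cluster 2. Akr1b10 was higher in the case cells of each of sub-clusters 1 to 5, from 176 to 2025 CPM in sub-cluster 1. Cxcl13 was found in sub-clusters 1, 2, 3, 5 and 6 of the case library, at 1443 CPM in sub-cluster 1 and 1379 CPM in sub-cluster 6, and at 0 in sub-cluster 4. Gpnmb was at 726 and 1470 CPM in sub-cluster 2.

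Because depth differed, each cell was also thinned to 1000 UMIs, in a draw of its own, and the share of cells with a gene was counted again. Cxcl13, in 2 of 46 control cells at full depth, was found in 0 of 46 thinned control cells, which allows a share with a UMI at that depth of up to 6.52% by a floor of 3 cells and of 7.71% by the exact interval. It was found in 21.4% (14.3 to 29.9) of case cells, against 0.124% of case smooth muscle cells at the same depth. Lgals3 was found in 26.1% (14.3 to 41.1) and 56.4% (46.9 to 65.6), and S100a4 in 28.3% (16.0 to 43.5) and 54.7% (45.2 to 63.9). The intervals of Lgals3 and S100a4 did not overlap between the libraries. In smooth muscle cells S100a4 was also found in more case cells, 48.5% in control and 74.2% in case.

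Several genes went the other way at equal depth. Basp1 was found in 32.6% (19.5 to 48.0) of control and 9.40% (4.79 to 16.2) of case cells, and Txn1 in 80.4% (66.1 to 90.6) and 50.4% (41.0 to 59.8), the latter beside 33.9% and 21.7% of smooth muscle cells. For RT1-Da the shares were 47.8% (32.9 to 63.1) and 42.7% (33.6 to 52.2) and for Apoe 52.2% (36.9 to 67.1) and 62.4% (53.0 to 71.2), with overlapping intervals. In smooth muscle cells, Apoe was found in 4.14% of control and 3.62% of case cells.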

How the data were processed

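Single-cell libraries were made with the 10x Genomics platform. The authors deposited raw UMI counts per gene and barcode for both libraries in 1 matrix, made with Cell Ranger 3.1.0 (file header) on build Rnor_6.0 (submitters' processing notes); other samples' columns numbered 0. Ages were 8 weeks at the start per the methods. Members and gene lists were chosen with earlier results of these data known. UMIs of members were summed per library and divided by their total (CPM). Ratios were taken for genes averaging 100 CPM or more over both libraries, and those past 2-fold were counted. Intervals are exact Poisson, binomial (Clopper-Pearson) or conditional binomial for log2 ratios, and a count of 0 was set to 3 in a ratio. Ratio intervals were checked on sums simulated with the Poisson model they assume. That check could not cover the uneven spread of a gene's UMIs over cells. The 12 genes named each way were those furthest by the interval end nearest 0. They had to be at or above the level of the other kept cells in the library where the macrophages held more of the gene. Tmem256, Rps2 and H3f3b reached that level in that library only. The 15 leading genes against these cells, list genes and genes named by the study were named too. Smooth muscle cells and fibroblasts were gated by the same limits (1 and 1.5%), with under 3 selection genes, and endothelial cells by 3 of 8 genes. Sub-clusters came from Leiden clustering (scanpy 1.11.5, leidenalg 0.10.2, 15 components of 1000 genes, 10 neighbours, resolution 0.5). Scrublet called 16 control and 2 case cells of 7191 doublets, too few to rely on, so doublets were left in. Promoters were from RefSeq GRCr8, a build other than that of the counts. Alternatives were the limits of the selection, depth, weighting, scaling (edgeR 4.0.16 TMM), filters and left-out cells. Depth per member ranged from 1341 to 19965 UMIs.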

Additional observations from a re-analysis of the deposited data

How the results depend on the processing

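With 1 library per group no library could be left out, and no paired analysis was possible because each group is 1 library, in which cells are not assigned to an animal. The removal of sub-clusters, of the highest cell for each gene and of the top 5% of doublet scores was chosen after seeing the data. Removal of called doublets, of cells over 20000 UMIs or of members with 3 or more markers of another type took out no macrophage. Gene values and list medians of the macrophages could therefore not move under these alternatives. When all cells were thinned to 1000 UMIs before the selection, macrophages were 1.38% of control and 1.56% of case cells. Members thinned to 1000 UMIs gave 128 genes over 2-fold higher and 122 lower, a minimum of 50 CPM gave 140 and 99, and a minimum of 10 UMIs gave 894 and 381, since lower counts entered the comparison. The median of the MHC class II list was -1.27 with at least 2 and -1.83 with at least 4 selection genes, and -1.24 with halved limits. It was -0.83 without sub-cluster 4, -1.235 without sub-cluster 6, -1.02 with thinned members and -0.89 with every member weighted the same. In each of 20 alternatives it was below 0, though those that took out no macrophage could not move it. The lipid handling median was 0.39 without sub-cluster 4, the interferon-stimulated median -0.65 without sub-cluster 5 and -0.79 with thinned members, and the chemokine and cytokine median 0.15 without the top 5% of doublet scores, for which the cause was not tested. Without thinning, Apoe was found in 73.9% of control and Cxcl13 in 30.8% of case cells. Of 504 values of named genes under alternatives, 452 stayed within the counting interval, including all under the alternatives that took out no macrophage. A further 51 moved and 1 turned direction, Pkib at 2.38 without sub-cluster 4, where few of its UMIs remained. Slpi, with 0 control and 3 case UMIs outside sub-cluster 4, was no longer lower there either and is among those that moved because a 0 was set to 3 UMIs. Ctsl fell short of 2-fold in 3, Folr2 and RT1-Da in 2, and Apoe, Cxcr4, Samd9 and Tmem256 in 1 of 21 alternatives each. TMM and the total without mitochondrial and ribosomal genes moved the median of all genes by -0.04 and 0.06, and no filter but 10 UMIs by 0.14.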
